A study of Mus musculus with 2 samples.

Results

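Goblet cells rich in Klk1 and Ccl6 are mucus-making epithelial cells of the mouse colon that hold more transcripts of Klk1, Ccl6, Plet1 and Spdef than of Zg16, Clca1, Reg4 and Mptx1. They were chosen from the measured counts. A cell barcode needed at least 1000 UMIs (unique molecular identifiers, tags that let each captured RNA be counted once), 200 detected genes, under 15% mitochondrial UMIs, at least 1 Epcam UMI and Muc2 at 0.3% or more of its UMIs, and a larger sum of the first 4 genes than of the second 4. The rule found 80 cells among 1139 kept barcodes, 32 of 436 in the THC library and 48 of 703 in the vehicle library. No barcode had equal sums.

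The data are droplet single-cell RNA counts from the colon of wild-type C57BL/6 mice, 1 library from THC-treated mice (Δ9-tetrahydrocannabinol, a cannabinoid of the hemp plant, 10 mg/kg) and 1 library from vehicle-treated mice. Neither group carries a mutation or a second agent by its labels. Tissue was loosened in EDTA, digested with collagenase D, DNAse and Dispase, and run over Percoll to enrich lamina propria, so the epithelial cells here are those that came through this preparation. How many mice gave each library, their sex and age, and when they were dosed is not stated in the labels. With 1 library a group there were no replicates, no test was made and no p-value is given. Intervals are exact 95% binomial or Poisson intervals and cover counting error only, not the spread between mice, preparations or cells.

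Goblet cells build and release the mucus that separates the colonic epithelium from bacteria. Their main product is the gel-forming mucin Muc2, which is folded in the endoplasmic reticulum, decorated with O-linked sugars in the Golgi, packed in granules and secreted together with partner proteins such as Fcgbp, Clca1, Zg16 and Tff3. The lineage depends on the transcription factor Atoh1, and Spdef acts downstream in goblet cell maturation. Klk1 is tissue kallikrein, a serine protease that releases kinins from kininogen, Ccl6 is a CC chemokine found in rodents, and Plet1 is a surface protein of epithelial progenitors.

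The Klk1/Ccl6 cells made up 66.7% of goblet barcodes in the THC library (32 of 48, Clopper-Pearson interval 51.6 to 79.6%) and 67.6% in the vehicle library (48 of 71, 55.5 to 78.2%). Of all Epcam barcodes they made up 32 of 168 (13.4 to 25.8%) with THC and 48 of 264 (13.7 to 23.4%) with vehicle, and of all kept barcodes 7.34% (5.07 to 10.2%) and 6.83% (5.08 to 8.95%). Each pair of shares differed by less than its counting intervals. The THC matrix was deposited with all barcodes and the vehicle matrix with called cells only, and the 1000 UMI minimum was applied to both. The cells were deep and alike in depth, with a median of 11863.5 UMIs per cell with THC (3036 to 29185) and 11193.5 with vehicle (1530 to 23707). Mitochondrial UMIs had a median of 5.72% with THC and 5.67% with vehicle. Of the vehicle barcodes 168 also had a UMI in the THC matrix, 2 reached 1000 UMIs in both libraries, and no kept barcode was in both.

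The rule compares sums of marker UMIs, so the sums are given as a description. The sum of Zg16, Clca1, Reg4 and Mptx1 was 0 in 26 of 32 THC and 41 of 48 vehicle members, and the sum of Klk1, Ccl6, Plet1 and Spdef had medians of 174 UMIs with THC and 127 UMIs with vehicle. The member nearest the line in the THC library had 6 UMIs against 0, at 3036 UMIs in all, and in the vehicle library the nearest had 16 against 0, at 1530 UMIs. Just outside the line, THC barcodes had 56 against 58 and 132 against 151 UMIs, and a vehicle barcode had 121 against 158. The lowest Muc2 share of a member was 0.329% with THC and 0.437% with vehicle.

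**Figure D1:**
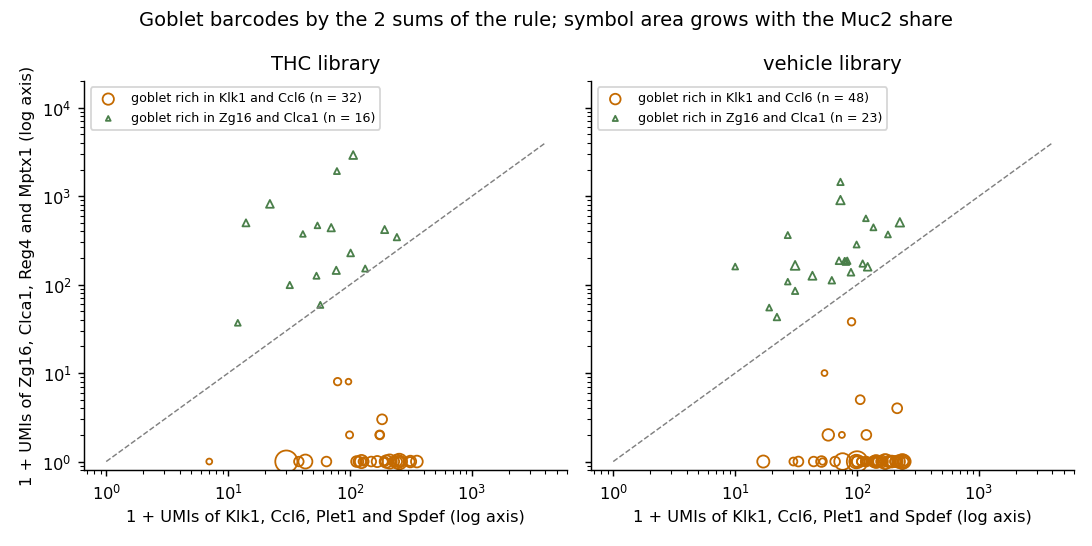
Each symbol is a goblet barcode, with 1 + the summed UMIs of Klk1, Ccl6, Plet1 and Spdef on the horizontal log axis and 1 + the summed UMIs of Zg16, Clca1, Reg4 and Mptx1 on the vertical log axis, the THC library left and the vehicle library right, and symbol area growing with the Muc2 share. Most Klk1/Ccl6 cells, 26 of 32 and 41 of 48, sit at a sum of 0 on the vertical axis, below the dashed line of equal sums.

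All 5 genes that mark the cells were present. These genes chose the cells, so their values are a description. Muc2 took a median of 3.48% of a cell's UMIs with THC (0.329 to 23.6%) and 4.11% with vehicle (0.437 to 20.3%), so a single mucin gene took over 20% of the UMIs of the richest cells. Summed over the cells, Muc2 stood at 39310 CPM (counts scaled to a total of 1000000 per class and library) with THC and 40814 CPM with vehicle. Klk1 stood at 8424 and 7388 CPM, Ccl6 at 3060 and 2779 CPM, Spdef at 877 and 783 CPM and Plet1 at 764 and 726 CPM, THC before vehicle in each pair. Muc2, Klk1, Ccl6 and Spdef were found in every member, while Plet1 was missing from 2 of 32 THC and 4 of 48 vehicle cells. Zg16 had no UMI in any member of either library, which allows up to 7.35 CPM with THC and 5.47 CPM with vehicle. The 13 Klk1b genes, close relatives of Klk1 whose reads could be shared with it, held 1 UMI in the THC and 5 UMIs in the vehicle members.

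Klk1 and Ccl6 were also counted outside the members. The Zg16/Clca1 goblet cells held Klk1 at 3257 CPM in the THC library and 4437 CPM in the vehicle library, in 100% of cells, and the members stood above them by log2 1.37 and 0.74. Ccl6 was at 757 and 1029 CPM in the Zg16/Clca1 cells and was found in 81.2% of them with THC and 78.3% with vehicle. Its log2 ratios, members over Zg16/Clca1 cells, were 2.02 and 1.43. Both genes are in the rule that split the classes, so these ratios are a description. With Muc2 at 1% or more, the Klk1 ratio was 1.01 with THC and 0.32 with vehicle. The Ccl6 ratio was then 2.46 with THC and 0.45 with vehicle. Other Epcam barcodes, with Muc2 below the minimum, held 531 CPM of Klk1 in the THC library and 622 CPM in the vehicle library, against 2.64 and 6.91 CPM in fibroblast barcodes. At least 1 Klk1 UMI was seen in 76.7% of the other Epcam barcodes with THC and 68.4% with vehicle, against 5.56% and 2.75% of Ptprc barcodes, immune cells with a median depth of 3833 and 3784 UMIs. Ccl6 was low in the other Epcam barcodes, 35.5 CPM with THC and 85.9 CPM with vehicle, and was also carried by Ptprc barcodes, at 398 and 221 CPM. In the 105814 THC barcodes under 100 UMIs, which reflect free RNA, Muc2 reached 4004 CPM, Klk1 1047 CPM and Ccl6 310 CPM.

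Within the members the marker genes varied together from cell to cell, except for Spdef. Klk1 and Ccl6 had a Spearman correlation of per-cell CPM of 0.74 over 32 THC cells and 0.60 over 48 vehicle cells, Ccl6 and Plet1 of 0.54 and 0.72, and Muc2 and Plet1 of 0.66 and 0.65. The correlations of Spdef with Muc2, Klk1, Ccl6 and Plet1 lay between 0.11 and 0.29 with THC and between 0.01 and 0.16 with vehicle. Agr2, the disulfide isomerase needed to make Muc2, had 0.01 and -0.14 with Muc2 itself, 0.58 and 0.16 with Klk1, and 0.51 and 0.23 with Ccl6, THC before vehicle. Muc2, Klk1, Ccl6, Plet1 and Spdef are in the rule that chose these cells, so their correlations are a description of the chosen set only. The cells of each library share their preparation, and CPM of 1 cell add up to a fixed total.

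**Figure D2:**
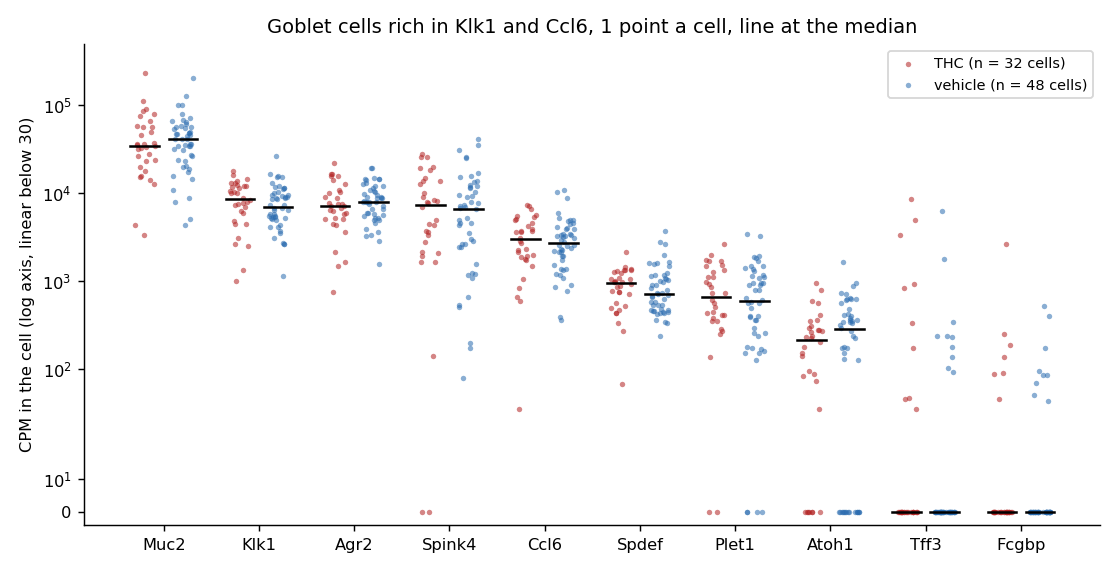
Per-cell CPM of 10 goblet genes in Klk1/Ccl6 goblet cells on a log axis that is linear below 30, with THC cells left of vehicle cells for each gene and a line at the median. Muc2, Klk1, Agr2 and Ccl6 are high in nearly all cells of both libraries, while the medians of Tff3 and Fcgbp are 0.

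The start regions of the rule genes Klk1, Ccl6, Plet1 and Muc2 are shown as RefSeq gives them for GRCm38.p6. They run from 250 bases before to 50 bases after the gene start, 5′ to 3′ on the gene's strand. Klk1 is at chr7:44225110-44225409 on the plus strand, Ccl6 at chr11:83593038-83593337 on the minus strand, Plet1 at chr9:50494275-50494574 on the plus strand and Muc2 at chr7:141690090-141690389 on the plus strand. Capitals mark matches on either strand to 5 motifs: CAGCTG and CATCTG (E-boxes, the kind of site that Atoh1-type factors bind), CCGGAT (an Ets site of the Spdef type), TGTTTAC (a forkhead site, as for Foxa factors) and TATAAA.
Klk1: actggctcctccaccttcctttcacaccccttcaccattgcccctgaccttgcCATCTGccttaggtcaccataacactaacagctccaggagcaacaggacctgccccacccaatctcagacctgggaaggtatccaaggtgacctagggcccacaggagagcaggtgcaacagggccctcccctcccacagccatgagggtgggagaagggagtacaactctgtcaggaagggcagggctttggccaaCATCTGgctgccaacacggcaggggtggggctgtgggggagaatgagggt
Ccl6: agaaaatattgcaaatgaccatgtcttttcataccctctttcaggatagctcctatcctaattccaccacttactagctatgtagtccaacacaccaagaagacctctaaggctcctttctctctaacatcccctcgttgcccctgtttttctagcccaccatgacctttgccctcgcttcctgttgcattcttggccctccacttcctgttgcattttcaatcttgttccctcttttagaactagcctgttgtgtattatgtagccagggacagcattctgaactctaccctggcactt
Plet1: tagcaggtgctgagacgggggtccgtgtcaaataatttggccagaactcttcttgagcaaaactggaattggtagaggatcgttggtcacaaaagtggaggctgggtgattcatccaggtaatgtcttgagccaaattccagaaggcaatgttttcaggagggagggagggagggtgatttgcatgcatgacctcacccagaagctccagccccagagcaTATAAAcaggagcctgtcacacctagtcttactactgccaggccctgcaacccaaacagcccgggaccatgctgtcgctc
Muc2: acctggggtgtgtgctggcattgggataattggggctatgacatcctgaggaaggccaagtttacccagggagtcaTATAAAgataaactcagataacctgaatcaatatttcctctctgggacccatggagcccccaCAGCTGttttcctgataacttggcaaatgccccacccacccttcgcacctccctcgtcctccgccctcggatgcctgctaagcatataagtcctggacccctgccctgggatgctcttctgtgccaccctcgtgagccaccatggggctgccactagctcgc
Klk1 held CATCTG 2 times and Muc2 held CAGCTG 1 time and TATAAA 1 time. Plet1 held TATAAA 1 time, and the Ccl6 window held none of the 5 motifs. Of all 32851 windows in the table, 16.3% held CAGCTG, 17.2% CATCTG, 6.04% CCGGAT, 3.65% TGTTTAC and 13.6% TATAAA. Among 20 genes looked up, the 5 markers and the 15 genes furthest above the Zg16/Clca1 class, 15 had a window, of which 3 held CAGCTG, 2 CATCTG, 0 CCGGAT, 1 TGTTTAC and 6 TATAAA. B3galt5, Lgmn and Ceacam10 had more than 1 window, and a gene counted if any of its windows held the motif. The shares over all windows count each window on its own, so the measures differ. A match describes letters only.

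Set beside the other goblet class, the Klk1/Ccl6 cells carried more Muc2 and far less of Fcgbp, Tff3 and Retnlb. The Zg16/Clca1 class held 16 THC and 23 vehicle cells. Its name covers a mixture, as not all of its cells held Zg16 or Clca1. In its vehicle cells Zg16 was found in 47.8%, Clca1 in 39.1% and Reg4 in 78.3%. In its THC cells Clca1 was found in 68.75% and Reg4 in 81.25%, with Zg16 between them. Muc2, part of the rule, stood at 39310 CPM in Klk1/Ccl6 cells against 8727 CPM in Zg16/Clca1 cells of the THC library, and at 40814 against 9008 CPM in the vehicle library. Fcgbp, a large mucus protein, had 46.6 CPM in Klk1/Ccl6 cells against 5928 CPM in Zg16/Clca1 cells of the THC library, and 42.0 against 2778 CPM with vehicle. Its log2 ratio was -6.99 (-7.73 to -6.35) with THC and -6.05 (-6.71 to -5.45) with vehicle. No Fcgbp UMI was found in 25 of 32 THC and 39 of 48 vehicle members. The member level lay below the 146 CPM of Fcgbp in THC barcodes under 100 UMIs.

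Of 8 mucus and secreted goblet genes outside the rule that could be measured in both libraries, 5 were at least 2-fold lower in Klk1/Ccl6 cells in both and 0 were 2-fold higher, against 2.49% lower and 2.08% higher among all 4333 genes measured in both. In single libraries 7.31% of genes were 2-fold lower and 8.46% higher with THC, and 6.35% lower and 7.04% higher with vehicle. Those 5 were Fcgbp, Tff3, Spink4, Retnlb and Muc3. Tff3, the trefoil peptide that protects mucosa, had 382 CPM in Klk1/Ccl6 cells against 3576 CPM in Zg16/Clca1 cells with THC, and 374 against 3909 CPM with vehicle. Of the members' Tff3 UMIs, 1 cell held 59.6% with THC and 1 cell held 71.7% with vehicle, and 22 of 32 and 38 of 48 members had none. Spink4 was still abundant in the members, with 9845 CPM against 24741 CPM in Zg16/Clca1 cells of the THC library and 9806 against 40000 CPM in the vehicle library. Retnlb, a goblet protein active against bacteria, had 51.5 against 3382 CPM with THC and 56.6 against 2504 CPM with vehicle. The membrane mucin Muc13 had log2 ratios of -0.93 and -0.77. Agr2 and the membrane mucin Muc4 lay above 0 without reaching 2-fold. Agr2 had 8451 CPM against 5447 CPM with THC and 8934 against 6520 CPM with vehicle. Its THC log2 ratio depended on the barcodes kept, at 0.63 as reported and 1.15 with a sum above 2 times the other sum. Without barcodes with other-cell markers it was 2.17 with THC and 0.85 with vehicle.

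The ranking by size named further genes as lower in the Klk1/Ccl6 cells. Gal3st2c, a sulfotransferase for galactose on glycans, had 0 UMIs in members against 44 UMIs in the Zg16/Clca1 cells with THC and 0 against 52 with vehicle, at least 19.7-fold and 30.5-fold lower with a floor of 3 UMIs over the class. Papss2, which makes the sulfate donor, had 27.0 against 306 CPM with THC and 27.4 against 257 CPM with vehicle. Hsd11b2, which inactivates glucocorticoids, had 85.8 against 1141 CPM with THC and 124 against 1534 CPM with vehicle. Sct, the hormone secretin, and Cldn4, a tight junction protein, had log2 ratios of -3.97 and -3.87 with THC and -5.89 and -3.35 with vehicle. Tgm3, a transglutaminase that cross-links mucus, had 0 UMIs in members against 23 with THC and 0 against 21 with vehicle, in 12.5% and 13.0% of Zg16/Clca1 cells. Spink1, Scin, Sprr1a, AA467197 and Muc3 were likewise lower, by log2 ratios of -3.55 or further from 0 in both libraries, or, for Spink1 with vehicle, at least 39.3-fold. Sprr1a with vehicle was at 0.17 when Muc2 had to reach 1%.

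C1qa, a complement subunit of macrophages, was the marker of another cell type in this contrast. It had 0 UMIs in Klk1/Ccl6 cells of both libraries, and 30 UMIs with THC and 55 with vehicle in Zg16/Clca1 cells, in 6 of 16 and 11 of 23 of them. C1qb and C1qc, its usual partners, had 0 UMIs in both goblet classes of both libraries. The part of C1qa-bearing barcodes in the other ratios was not tested beyond leaving out barcodes with other-cell markers.

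The 15 genes furthest above the Zg16/Clca1 class were ranked by the smaller of the ratios in the libraries, so the choice fixed their shared direction. Cldn2, a pore-forming tight junction protein, had 309 CPM in Klk1/Ccl6 cells against 36.2 CPM with THC and 316 against 48.2 CPM with vehicle. Aqp1, a water channel, had 326 against 29.6 CPM with THC and 279 against 45.0 CPM with vehicle, and was found in 90.6% and 91.7% of members. B3galt5, a galactosyltransferase of glycans, had 348 against 62.5 CPM with THC and 381 against 57.9 CPM with vehicle, and was found in 93.8% and 95.8% of members. Osr2, a zinc finger transcription factor, had log2 ratios of 4.33 (2.41 to 7.41) and 2.55 (1.43 to 3.91), THC library before vehicle library. Rab37, a GTPase of secretory granules, had 4.10 and 3.94, on 1 UMI in each Zg16/Clca1 class. Fam3b, Wfdc18 and Ceacam10, which encode secreted proteins, Pcsk1, a convertase of prohormones, Lgmn, a lysosomal protease, Rgs17, a regulator of G protein signalling, Fabp5, a fatty acid carrier, and Nxpe2 had log2 ratios of 2.18 to 5.11, apart from Fabp5 with vehicle, at least 4.73-fold higher. With Muc2 at 1% or more, the vehicle ratios of B3galt5, Rgs17 and Ceacam10 were under 2-fold, at 0.95, 0.78 and 0.72, against 2.72, 2.73 and 2.55 as reported. Fam3b with vehicle was at -0.48 when cells were thinned to 1000 UMIs by a random draw, on small counts. Another thinned draw found it in 14.6% of vehicle members and 0% of vehicle Zg16/Clca1 cells. The uncharacterised 2210407C18Rik had 5.14 and 3.17, and 1810010D01Rik had 5.07 with THC and at least 10.6-fold with vehicle.

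**Figure D3:**
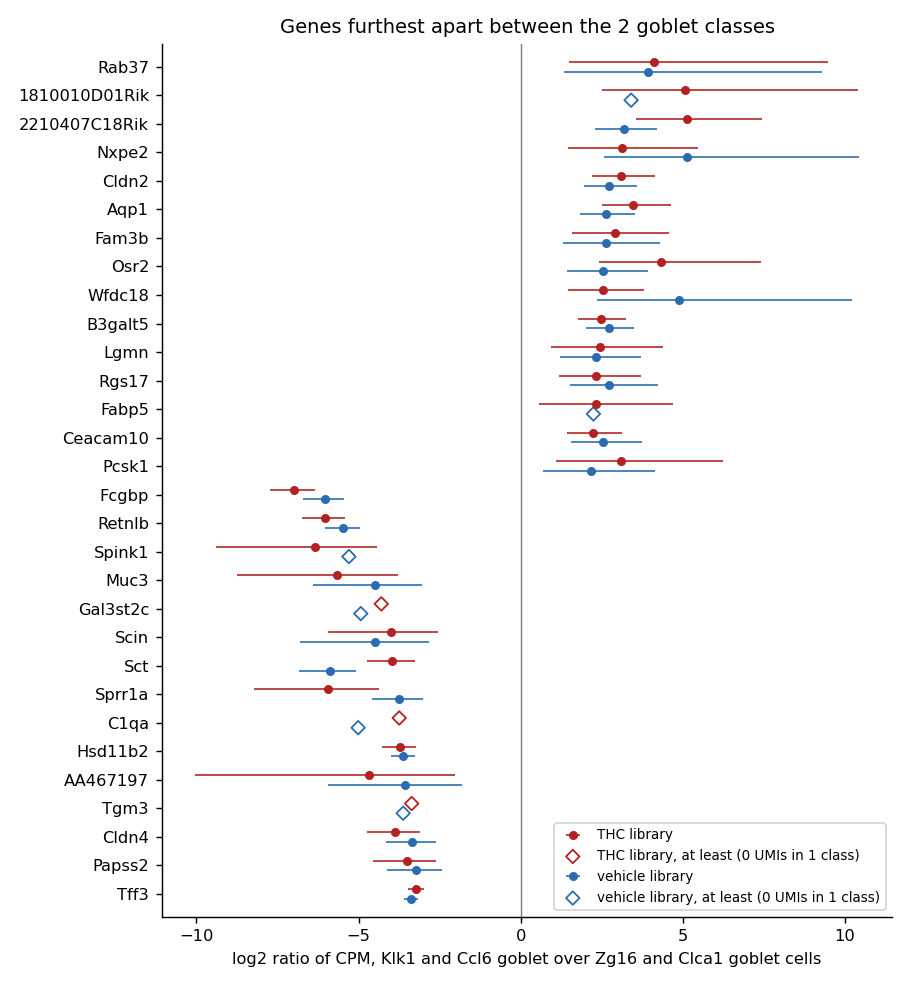
Log2 ratios of CPM, Klk1/Ccl6 over Zg16/Clca1 goblet cells, for the 15 genes furthest above and the 15 furthest below 0, with the THC library above the vehicle library and exact Poisson 95% intervals; open diamonds are bounds where a class had 0 UMIs. The ranking required the same side of 0 in both libraries, and Fcgbp lies at -6.99 and -6.05.

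Sugar-adding enzymes and folding factors leaned towards the Klk1/Ccl6 cells, mostly by less than 2-fold. Among 20 mucin glycosylation genes, 15 were above 0 and 2 below 0 in both libraries, with medians of 0.77 with THC and 0.55 with vehicle, against 0.06 and -0.03 for all genes. Fut2, which adds the terminal fucose, was the 1 gene past 2-fold in both, with 181 against 42.8 CPM with THC and 141 against 57.9 CPM with vehicle, and the sialyltransferase St3gal6 the 1 gene 2-fold lower. Gcnt3, a branching enzyme of mucin sugars, had log2 ratios of 1.44 and 0.91, and C1galt1, which builds core 1, had 1.46 and 0.91. Among 22 endoplasmic reticulum genes, 17 were above 0 in both libraries and 0 below 0 in both, with medians of 0.42 and 0.41. Ddit3, the stress-induced transcription factor CHOP, was the 1 gene of that list past 2-fold in both, at 1218 against 372 CPM with THC and 1067 against 463 CPM with vehicle.

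Of 5 deep crypt secretory genes, 2 outside the rule could be measured, and both were past 2-fold higher in the Klk1/Ccl6 cells in both libraries. Among all 4333 genes measured in both, 2.08% were 2-fold higher and 2.49% lower. Kit, the receptor of stem cell factor, had 152 CPM against 52.6 CPM with THC and 133 against 54.7 CPM with vehicle. Cd24a, a surface glycoprotein, had 1073 against 336 CPM with THC and 980 against 444 CPM with vehicle. Reg4, the usual marker of these cells, is part of the rule on the other side, with 9.80 against 4339 CPM and 76.6 against 7619 CPM. In both libraries Reg4 was found in more of the Zg16/Clca1 cells than Zg16 was. The contrast for Kit and Cd24a is therefore not with Zg16-bearing goblet cells alone. Ephb3 and Cd44, Wnt targets of the lower crypt, were the 2 of 7 measured crypt genes past 2-fold higher in both libraries, with 0 lower. Hoxb13, a homeobox gene of the distal colon, was lower in the members, with 34.3 against 69.1 CPM with THC and 5.47 against 148 CPM with vehicle, on 14 and 3 UMIs in the members, and other Epcam barcodes held 187 and 160 CPM. Guca2a, a precursor of the peptide guanylin, had 1304 against 375 CPM with THC and 1084 against 495 CPM with vehicle. Among 7 surface colonocyte genes measured outside the rule it was the 1 past 2-fold higher in both libraries, and 2 were past 2-fold lower. Duox2, an oxidase of the epithelial surface, had log2 ratios of 1.49 and 3.47, on 4 UMIs in the Zg16/Clca1 cells of the vehicle library. Among 6 antimicrobial and barrier genes measured outside the rule it was the 1 past 2-fold higher in both libraries, and 2 were past 2-fold lower.

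The Zg16/Clca1 class was small, and single cells held much of some genes. In the THC library 1 of its cells held 71.5% of its 719 Ang4 UMIs, 1 held 97.5% of its 122 Itln1 UMIs and 1 held all 246 Gcg UMIs, while in the vehicle library Ang4 and Itln1 had 2 UMIs each and Gcg 0. Leaving out goblet barcodes with Muc2 under 1% left 37 genes 2-fold lower in both libraries in place of 108.

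Against the other Epcam barcodes the members showed a secretory profile. At least 2-fold higher in both libraries were 619 of 8776 genes (7.05%), and 1055 (12.0%) were at least 2-fold lower. In single libraries 10.6% were higher and 19.1% lower with THC, and 10.8% higher and 22.5% lower with vehicle. Among these lists, 13 of 20 glycosylation genes, 12 of 23 endoplasmic reticulum genes and 6 of 11 granule and ion transport genes were higher, with 0, 0 and 1 lower. Of 16 transcription factors and fate genes, 7 were higher and 3 lower. Atoh1 had 255 against 7.48 CPM with THC and 321 against 36.7 CPM with vehicle, and Creb3l4, a membrane-bound factor of secretory cells, had 174 against 4.21 CPM and 223 against 11.1 CPM. Foxa1, Foxa3, Creb3l1, Xbp1 and Hes6 were the other 5. Elf3, Hnf4a and Notch1 were lower. Ern2, the stress sensor particular to mucous epithelia, had log2 ratios of 3.41 and 3.66. Of 18 surface colonocyte genes 14 were lower and 2, Guca2a and Guca2b, were higher, and of 15 cell cycle genes 11 were lower and 0 higher. The other Epcam barcodes were not pure: Igha, an immunoglobulin heavy chain gene, reached 1292 CPM with THC and 2268 CPM with vehicle in them, against 4.90 and 3.65 CPM in the members.

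Markers of other cells were scarce in the members. T cell, mast cell and granulocyte, and tuft cell markers had no UMI in either library. The summed share of the fibroblast, smooth muscle, endothelial, B cell, plasma cell, macrophage and glia lists lay between 0 and 0.0076% of UMIs with THC and between 0 and 0.00602% with vehicle, highest for plasma cells (2 of 6 markers with a UMI with THC, 3 of 6 with vehicle). A single vehicle member held all 22 Chga and all 77 Chgb UMIs, markers of hormone-producing cells, and a single vehicle member held all 15 UMIs of the B cell marker Fcer2a. An alternative left out the 6 THC and 7 vehicle members with 3 or more UMIs of other-cell markers, a count that includes Fcer2a. The Fcer2a cell was also the vehicle member richest in Reg4, Tff3, Fcgbp and Hmgcs1. Its part in the results was not tested beyond this. Chga and Chgb were not in that count, which reached at most 17 UMIs in a vehicle member. The part of the cell with Chga and Chgb in the results was not tested.

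Between the libraries few genes of the Klk1/Ccl6 cells differed by 2-fold. Of 2630 genes with at least 50 UMIs over both libraries, 23 (0.875%) were at least 2-fold higher and 17 (0.646%) at least 2-fold lower with THC than with vehicle, and without members with other-cell markers 15 were higher. The main mucus genes had close levels in the libraries. Muc2 had a log2 ratio, THC over vehicle, of -0.05 (-0.08 to -0.02), Agr2 of -0.08, Spink4 of 0.01 and Tff3 of 0.03. The Tff3 ratio rested largely on single cells, as 1 cell held 59.6% of its UMIs with THC and 1 cell 71.7% with vehicle. The 20 measured glycosylation genes had a median of -0.05 and the 22 endoplasmic reticulum genes a median of -0.01, with 0 genes past 2-fold in either direction in both lists, beside a median of 0.04 and 3.45% higher and 2.65% lower over all 5479 genes with at least 20 UMIs. The transcription factor list had a median of 0.17 with 0 of 16 genes past 2-fold, and the cytosolic heat shock list 0.25 with 0 of 12. Of 16 immediate early genes 13 were below 0, with a median of -0.14 and 0 past 2-fold. In the Zg16/Clca1 cells 13 of 15 such genes were below 0, with a median of -0.32. Over all measured genes, 2536 of 5479 were below 0 in the members and 2123 of 4045 in the Zg16/Clca1 cells.

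Most measured genes of sterol and lipid synthesis had THC over vehicle ratios below 0 in the Klk1/Ccl6 cells and above 0 in the Zg16/Clca1 cells, few of them past 2-fold, and no test could be made. The list holds enzymes that make cholesterol and fatty acids and regulators of the pathway. In the Klk1/Ccl6 cells 11 of 13 measured genes were below 0, with a median log2 ratio of -0.42, 2 past 2-fold lower and 0 past 2-fold higher. Of all 5479 genes measured there, 2536 were below 0, with a median of 0.04, 2.65% past 2-fold lower and 3.45% past 2-fold higher. In the Zg16/Clca1 cells the same list had 12 of 13 above 0, with a median of 0.46, 2 past 2-fold higher and 0 lower. Of all 4045 genes measured there, 1922 were above 0, with a median of -0.04, 4.38% past 2-fold higher and 4.67% past 2-fold lower. Hmgcs1, an early enzyme of cholesterol synthesis, had 127 CPM with THC against 252 CPM with vehicle in Klk1/Ccl6 cells (52 and 138 UMIs, log2 -0.98, -1.47 to -0.51; 0.00 with cells thinned to 1000 UMIs), and 280 against 196 CPM in Zg16/Clca1 cells (0.51, 0.02 to 1.01). Insig1, a sterol sensor, had 58.8 CPM with THC against 98.5 CPM with vehicle in Klk1/Ccl6 cells (-0.74), and 122 against 77.2 CPM in Zg16/Clca1 cells (0.66, -0.12 to 1.46).

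Sqle and Idi1 were the 2 genes of the list past 2-fold in the Klk1/Ccl6 cells. Sqle, squalene epoxidase, had 2 UMIs in 2 of 32 THC cells and 21 UMIs in 14 of 48 vehicle cells (-2.97, -6.10 to -0.93). Idi1, an isomerase of the same pathway, had 14 UMIs with THC and 43 with vehicle (-1.19, -2.18 to -0.30). The list took a median of 0.0636% of a member's UMIs with THC (0 to 0.191%) and 0.0859% with vehicle (0 to 0.349%), so the ranges of single cells overlapped widely. Of the vehicle members' Hmgcs1 UMIs 27.5% lay in 1 cell. The same cell was the vehicle member richest in Reg4, Tff3 and Fcgbp, with 36, 147 and 12 UMIs. It also held the Fcer2a UMIs and 17 UMIs of other-cell markers. With the richest barcode of each gene left out, the median of the list was -0.51. Leaving out barcodes with other-cell markers, this cell among them, gave a median of -0.33. The opposite signs of the goblet classes could not be tested with 1 library a group.

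**Figure D4:**
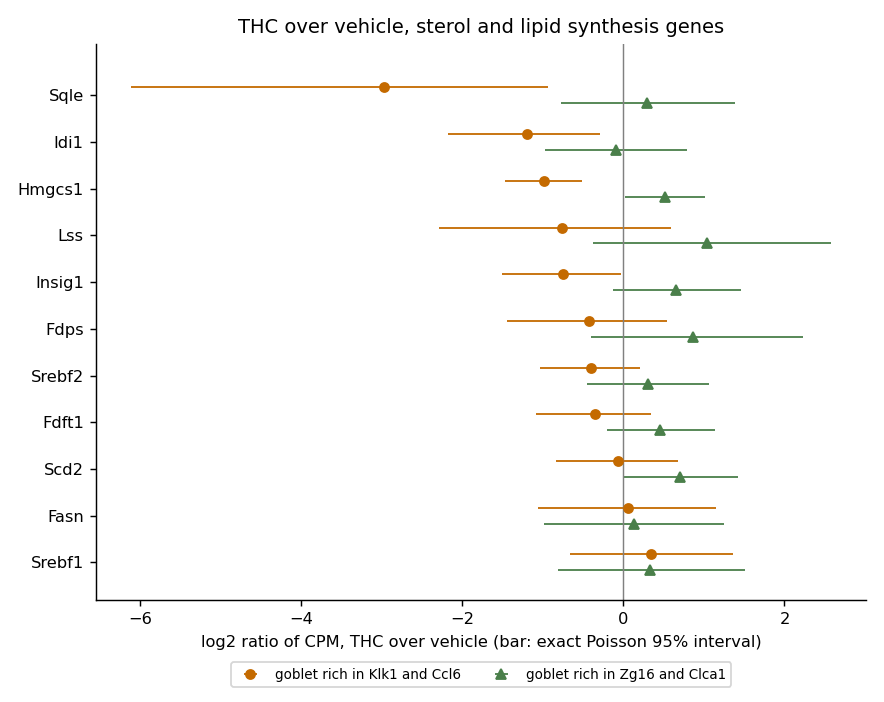
Log2 ratio of CPM, THC over vehicle, for 11 of the measured sterol and lipid synthesis genes in Klk1/Ccl6 goblet cells (circles, upper of each pair) and Zg16/Clca1 goblet cells (triangles), with exact Poisson 95% intervals. In Klk1/Ccl6 cells 9 of the 11 lie below 0, and in Zg16/Clca1 cells 10 of the 11 lie above 0.

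The endothelin precursors Edn1 and Edn2, secreted vasoactive peptides, were among the 8 genes named as higher with THC. Edn1 had 77 UMIs in 12 of 32 THC cells and 24 UMIs in 9 of 48 vehicle cells, or 189 against 43.8 CPM (log2 2.11, 1.43 to 2.83). Its median was 0 in both libraries, so the difference lay in the minority of cells with the transcript. With cells thinned to 1000 UMIs by a random draw the ratio was -0.42, on small counts. Thinned cells showed Edn1 in 6.25% of THC and 2.08% of vehicle members. Edn2 had 95.6 CPM with THC against 32.8 CPM with vehicle (1.54, 0.70 to 2.43), and 0.98 without the barcodes that carry other-cell markers. In the Zg16/Clca1 cells Edn1 had 1.06 (0.41 to 1.73) and Edn2 -0.53 (-1.14 to 0.08). Ly6e, a membrane-anchored surface protein, had 397 CPM with THC against 190 CPM with vehicle (1.06, 0.70 to 1.43), and was found in 30 of 32 and 34 of 48 members. Its ratio was under 2-fold with Muc2 at 1% or more (0.95) and with CPM averaged over cells (0.85). Slc2a1, the glucose transporter Glut1, had 152 against 67.5 CPM (1.17, 0.56 to 1.80), and Ccnd1, cyclin D1, 103 against 40.1 CPM (1.36, 0.58 to 2.17).

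Crip1, a small LIM protein, had a log2 ratio of 0.85 (0.66 to 1.03) and was the most counted of the higher genes, at 1367 CPM with THC against 761 CPM with vehicle. Tuba1b, a tubulin, had 1.52 (0.77 to 2.30), with 30.6% of its THC UMIs in 1 cell, and Bex3 had 1.36 (0.60 to 2.16), or 0.80 without the barcodes that carry other-cell markers. Cell cycle genes were few: Mki67, a proliferation marker, had 11 UMIs with THC in 4 cells and 1 UMI with vehicle, and of 5 measured cell cycle genes Stmn1 and Tyms were past 2-fold higher, on 36 and 12 UMIs with THC against 24 and 8 UMIs with vehicle. Among all 5479 genes with at least 20 UMIs, 3.45% were past 2-fold higher. The cell cycle list took a median of 0.0143% of a member's UMIs with THC and 0.0182% with vehicle. The highest cell had 0.356% with THC and 0.078% with vehicle.

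The lower genes were led by Gm42418, a gene model over ribosomal RNA sequence that collects ribosomal reads. It took 5.23% of member UMIs with THC and 9.22% with vehicle (log2 -0.82, -0.84 to -0.80), while the per-cell median was higher with THC, 4.10% against 3.43%. At least 20% of UMIs were Gm42418 in 0 of 32 THC and 6 of 48 vehicle members, up to 45.9% in 1 of these. In the Zg16/Clca1 cells the ratio was 0.78 (0.74 to 0.82). Leaving the gene and Gm26917 out of the totals gave a sterol list median of -0.49.

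Rsad2, the interferon-induced viperin, had 11 UMIs with THC against 40 with vehicle (-1.44, -2.55 to -0.45; -0.98 with CPM averaged over cells). Of 6 measured interferon-stimulated genes it was the 1 past 2-fold lower and 0 were past 2-fold higher, with 2 above 0, 4 below 0 and a median of -0.04. The other members, Irf1, Irf7, Bst2, Ifi27 and Ifi35, lay between -0.20 and 0.09. Cxcl16, a chemokine for T cells, had 53.9 CPM with THC against 117 CPM with vehicle (-1.12, -1.89 to -0.40), or -0.85 without the barcodes that carry other-cell markers, and Cxcl10 had 42 UMIs with THC, 90.5% of them in 1 cell, against 4 with vehicle. Btg2, an antiproliferative immediate early gene, had 1700 against 2454 CPM (-0.53, -0.66 to -0.40) and -0.39 (-0.54 to -0.24) in Zg16/Clca1 cells. Thbs1, thrombospondin, had 946 against 1358 CPM (-0.52, -0.70 to -0.34) and 0.00 (-0.20 to 0.21) in Zg16/Clca1 cells. Unc50 and Unc45a, a chaperone of myosin, had -1.38 and -1.09.

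**Figure D5:**
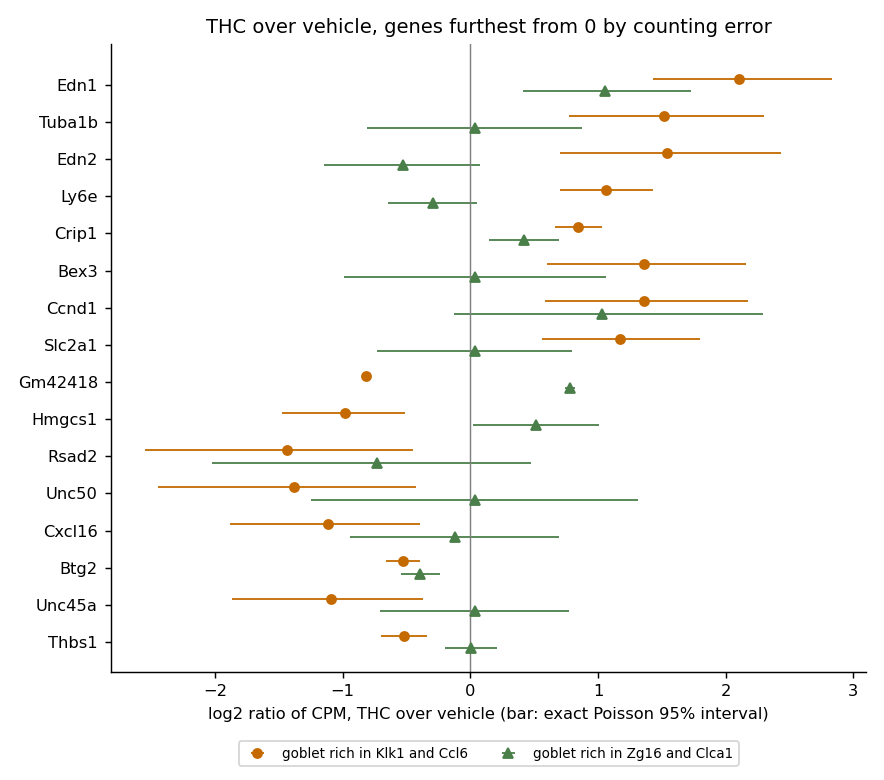
Log2 ratio of CPM, THC over vehicle, for the 8 genes furthest above and the 8 furthest below 0 by counting error in Klk1/Ccl6 goblet cells (circles, upper of each pair), beside the same genes in Zg16/Clca1 goblet cells (triangles), with exact Poisson 95% intervals. Edn1, Crip1 and Btg2 have the same sign in both classes with intervals off 0, and Gm42418 and Hmgcs1 have opposite signs with intervals off 0.

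Over all pathway lists, those of the cell cycle, of Wnt targets and of cell types left aside, 1 gene was past 2-fold higher with THC (Cxcl10) and 6 past 2-fold lower (Cxcl16, Idi1, Sqle, Rsad2, Reg4 and Lyz1). Over all 5479 genes with at least 20 UMIs, 3.45% were past 2-fold higher and 2.65% past 2-fold lower. Reg4 had 4 UMIs with THC against 42 with vehicle, 85.7% of them in 1 cell, and Lyz1 had 0 against 22, all in 1 cell. The cell with most of the Reg4 was also the vehicle member richest in Hmgcs1, Tff3 and Fcgbp.

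The cannabinoid receptor genes Cnr1 and Cnr2, and the receptor gene Gpr55, had 0 UMIs in the members of both libraries. This allows up to 7.35 CPM with THC and 5.47 CPM with vehicle for each. Faah and Abhd6, enzymes that break down endocannabinoids, were found at 14 and 14 UMIs with THC and 12 and 18 UMIs with vehicle.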

How the data were processed

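Droplet single-cell RNA libraries of mouse colon, 1 after THC and 1 after vehicle, were analysed from the UMI counts in the deposited matrices. Cell Ranger 3.0.2 wrote these counts, per the file headers, while bcl2fastq and Seurat are named only in the submitters' processing notes. No source used here names the genome build or annotation. The THC matrix holds 737280 barcodes and the vehicle matrix 973 called cells. The goblet rule and the cells it left out are given with the results. No doublet caller was run; members with at least 3 UMIs of other-cell markers were left out as an alternative.

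Counts were summed over the cells of a class and library, scaled to a total of 1000000 (CPM) and compared as log2 ratios with exact conditional Poisson intervals; shares have Clopper-Pearson intervals (Python 3.11.15, scipy 1.17.1). Kept barcodes held 4956950 UMIs with THC and 6533055 with vehicle. The scripts were tested on simulated counts. Genes compared between goblet classes needed 20 UMIs over both classes in each library, and list genes 20 UMIs over both libraries. Between THC and vehicle the text names the 8 genes highest and the 8 lowest by the interval bound nearest 0, among genes with at least 50 UMIs, in at least 10% of the cells of a library, with no cell holding over 50% of a library's UMIs (where it had 10 or more) and with at least 20% of the highest CPM of another class; between goblet classes it names the 15 highest and 15 lowest by the smaller ratio. Genes for ribosomal proteins, immunoglobulins, T cell receptors, haemoglobins and mitochondrial RNAs, and sex-linked genes, were not ranked. List genes and rule genes may also be named. Of 388 genes in 33 lists, 386 were in the files. The members and lists were chosen with earlier results of these data known. Alternatives changed the UMI, mitochondrial and Muc2 limits, the margin of the sums, the scaling, the filter and the depth. For 2 genes of the sterol list, single values are not reported here; they count in the list totals.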

Additional observations from a re-analysis of the deposited data

Results flagged for a closer look

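Gm42418 and Hmgcs1 moved in opposite directions in the goblet classes: the log2 ratio, THC over vehicle, was 0.78 for Gm42418 and 0.51 for Hmgcs1 in Zg16/Clca1 goblet cells, against -0.82 and -0.98 in the Klk1/Ccl6 goblet cells. The difference between the classes was not tested.

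The 15% mitochondrial limit left out 4 THC and 5 vehicle barcodes that met the rest of the Klk1/Ccl6 goblet rule, with a median mitochondrial share of 32.7% with THC and 26.1% with vehicle. These barcodes enter no comparison.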

How the results depend on the processing

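No paired analysis was possible because there was 1 library a group. Of 84 values of the shares and counts under the alternatives, 61 stayed near the reported ones and 23 moved. The share of goblet barcodes in the Klk1/Ccl6 class became 81.1% with THC and 88.0% with vehicle when Muc2 had to reach 1%, and 81.25% and 78.8% without barcodes with other-cell markers. Genes 2-fold higher with THC numbered 15 without barcodes with other-cell markers (also with C1qa not counted, an alternative chosen after seeing the data), 1 with cells thinned to 1000 UMIs, 35 with CPM averaged over cells and 507 with a filter of 10 UMIs. Genes 2-fold lower with THC numbered 3 with thinning, 29 with the mean and 392 with that filter. Genes 2-fold higher than in Zg16/Clca1 cells in both libraries numbered 8 with thinning, 153 without the richest barcode of each gene and 168 with the filter of 10 UMIs. Genes lower numbered 37 with Muc2 at 1%, 14 with thinning and 189 with that filter. Pathway list genes 2-fold higher with THC (Cxcl10 as reported, cell cycle, Wnt target and cell type lists left aside) numbered 2 with Muc2 at 1%, 4 without other-cell markers (4 with C1qa not counted), 0 with thinning and 4 with the mean.

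Of 1002 values for single genes and lists, 879 stayed near, 120 moved and 3 reversed: Sprr1a against Zg16/Clca1 cells with vehicle at 0.17 with Muc2 at 1%, and, thinned to 1000 UMIs, Edn1 at -0.42 and Fam3b with vehicle at -0.48. The thinned Edn1 and Fam3b values rest on a random draw with small counts. The sterol list median stayed between -0.53 and -0.33 wherever it could be computed. Leaving Gm42418 and Gm26917 out of the totals, also chosen after seeing the data, moved no count by over 1.5 times.

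Depth limits genes with few UMIs. Intervals span more than a doubling under about 50 UMIs and also for genes above that, such as Edn1 on 101 UMIs (log2 1.43 to 2.83). With 1 library a group, effects of THC cannot be told apart from those of mouse or preparation.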
